A study of Mus musculus with 20 samples.

Results

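Matrix metalloproteinases (MMPs) and tissue inhibitors of metalloproteinases (TIMPs) were followed at the RNA level in the plantaris muscle of 20 old mice. The set holds 10 genes, the proteases Mmp2, Mmp3, Mmp9, Mmp12, Mmp14 and Mmp19 and the inhibitors Timp1, Timp2, Timp3 and Timp4. They were picked by gene name, with earlier results of these data known. All 10 have a row among the 22660 genes of the count table. The mice were male C57BL/6J, 2 years old per the labels, and fell into 4 groups of 5 different animals. Mechanical overload (MOV) was imposed for 14 days by cutting away part of the soleus and gastrocnemius on both sides, whereas sham surgery opened the skin only. Within each surgery, 5 mice received D + Q, which is dasatinib at 5 mg/kg, a tyrosine kinase inhibitor, with quercetin at 50 mg/kg, a plant flavonoid, and 5 received the vehicle by gavage. Doses were given on days 7 and 10 after surgery per the treatment protocol, although the description of the series places the second dose of sham mice on day 14. D + Q was given by mouth to the whole animal, so it was not directed at one cell type of the muscle.

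MMPs are zinc-dependent endopeptidases of the extracellular matrix that are made as inactive proenzymes, held silent by a cysteine of the propeptide that covers the catalytic zinc. TIMPs are small secreted proteins that block MMPs by wedging their amino-terminal edge into the open active site. In skeletal muscle both families come largely from fibroblasts and other interstitial cells, with a share from macrophages, and they are known for remodelling the matrix around fibers during growth and repair. For Mmp14 in overloaded plantaris, the authors cite their earlier work, which named macrophages of the M2 type as the main source of its mRNA. Mmp14, a protease anchored in the cell membrane, converts the Mmp2 proenzyme at the cell surface with Timp2 as the bridge between both, so that Timp2 acts as a partner as well as an inhibitor.

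The coding stretch that defines each family is shown first because it is the part through which proteases and inhibitors meet their function. In MMPs it is the cysteine switch, given as 24 bases with the cysteine codon in capitals, from the canonical transcript on GRCm39 with GENCODE vM39. Each stretch lies within 1 exon, exon 2 of Mmp2, Mmp3, Mmp9 and Mmp12 and exon 3 of Mmp14 and Mmp19.
Mmp2, chr8:93557393-93557416, plus strand: ccaagaTGTggcaacccagatgtg
Mmp14, chr14:54673608-54673631, plus strand: cctcgcTGTggtgttccggataag
Mmp9, chr2:164790905-164790928, plus strand: ccacgcTGTggtgtcccagacgtg
Mmp3, chr9:7447095-7447118, plus strand: cccaggTGTggtgttcctgatgtt
Mmp12, chr9:7348750-7348773, plus strand: cctcgaTGTggagtgcccgatgta
Mmp19, chr10:128630468-128630491, plus strand: ccccgtTGTggtctggaggatccc

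In TIMPs the matching stretch is the amino-terminal edge, given as 30 bases that start with the codon of the cysteine that becomes the first residue of the mature protein, in capitals. It lies in exon 2 of Timp1 and in exon 1 of Timp2, Timp3 and Timp4.
Timp1, chrX:20737350-20737379, plus strand: TGTagctgtgccccaccccacccacagaca
Timp2, chr11:118245809-118245838, minus strand: TGCagctgctccccggtgcacccgcaacag
Timp3, chr10:86136787-86136816, plus strand: TGCacatgctctcccagccatccccaggat
Timp4, chr6:115228623-115228652, minus strand: TGCagctgtgcgcctgcgcacccccagcag

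The total of the estimated counts lay between 17887495 and 26234505 per mouse, and levels are given as CPM, the count of a gene relative to its library total after TMM scaling over the 20 mice. Myofiber genes carried the muscle label, with a summed level of 73850 to 146907 CPM over 7 markers in every mouse. One library stood apart among the members, since vehicle MOV mouse 2 was the lowest of its group in 7 of the 10 genes, whereas vehicle MOV mouse 4 was the highest in 7. Mouse 2 also had the lowest summed fibroblast and macrophage markers of its group, 5035 and 310.1 CPM. D + Q MOV mouse 2 was the lowest of its group in 5 of the 10 genes.

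**Figure D1:**
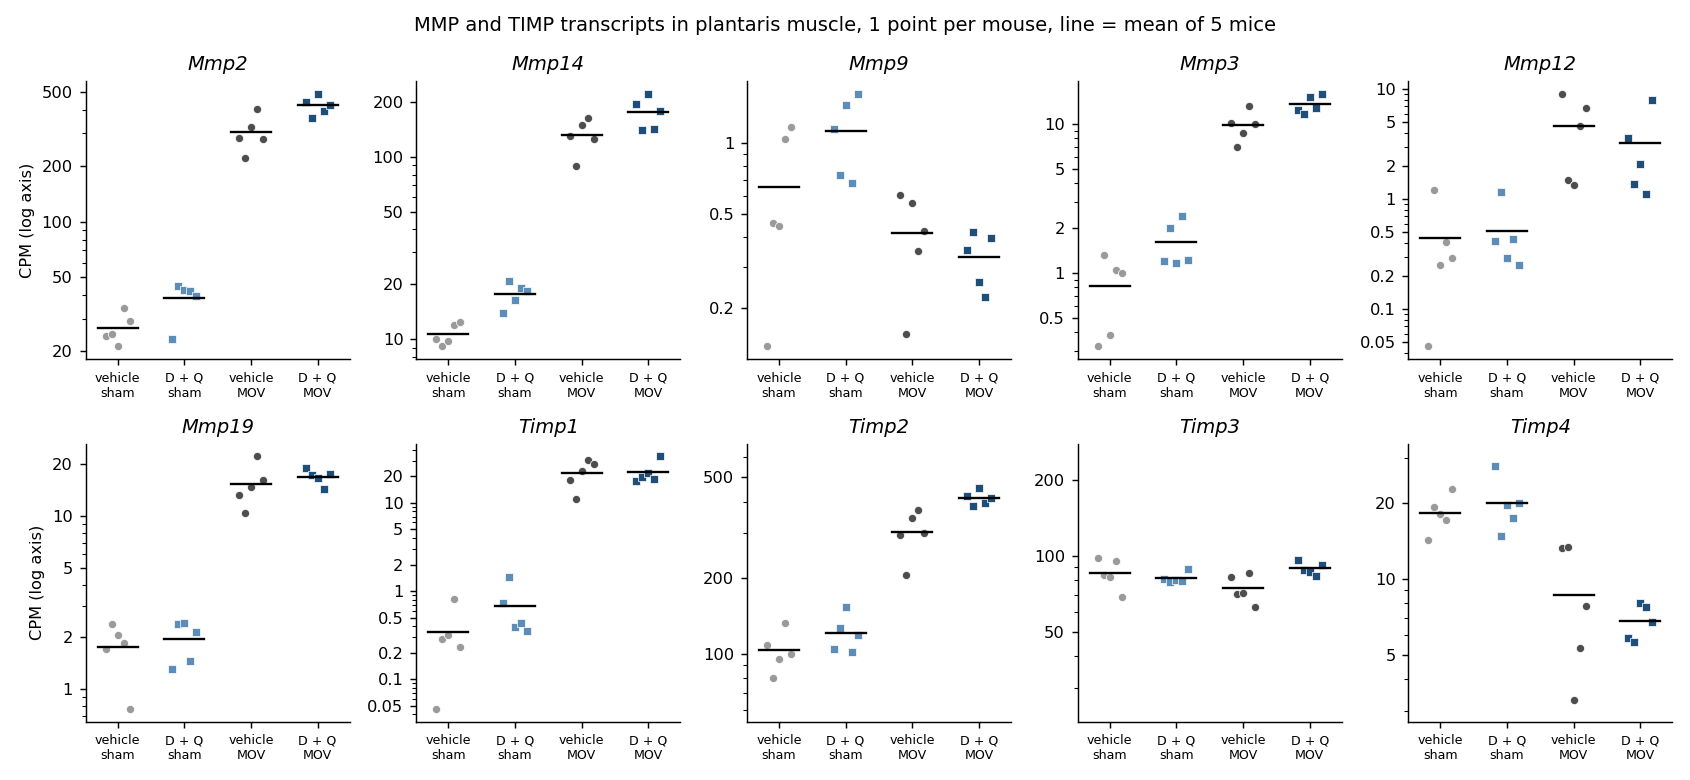
Level of each MMP and TIMP in CPM on a log axis, with 1 point per mouse (circles vehicle, squares D + Q) and a line at the mean of 5 mice. MOV mice lie above sham mice for Mmp2, Mmp14, Mmp3, Mmp19, Timp1 and Timp2, below them for Timp4, and among them for Timp3.

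MOV against sham asks how overload for 14 days changed these transcripts, once in vehicle and once in D + Q mice. In vehicle mice 7 of the 10 genes rose (Mmp2, Mmp3, Mmp12, Mmp14, Mmp19, Timp1 and Timp2), Timp4 fell, and Mmp9 and Timp3 did not pass the test. Of all 14601 genes tested there, 30.7% rose and 29.8% fell. In D + Q mice 8 of 10 rose, the same 7 with Timp3, and Timp4 and Mmp9 fell, where 34.4% of 14913 tested genes rose and 30.9% fell. The median log2 fold change was 3.29 over the 10 members and -0.015 over all genes tested with vehicle, and 2.92 and 0.023 with D + Q. Because the members were chosen with earlier results of these data known, the values over all genes give scale only. Both comparisons use different mice throughout. All 10 genes passed the count minimum of 10 counts in 5 mice, but in both treatments Mmp12 and Timp1 passed it through the MOV mice. Mmp3 did so with vehicle, where its sham counts were 6 to 23. Mmp12 and Timp1 each reached 10 counts in 1 vehicle sham mouse. Over the sham mice of both treatments, 2 reached 10 counts for Mmp12 and 3 for Timp1.

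Mmp2 and Mmp14, the pair that meets at the cell surface, were the most abundant proteases among the members and rose by nearly the same factor. Mmp2, the gelatinase that cleaves denatured collagen and basement membrane (chr8:93553902-93580049), stood in mice 1 to 5 at 24.2, 24.7, 21.2, 34.1 and 29.1 CPM in vehicle sham muscle. In vehicle MOV muscle it stood at 284, 219, 325, 407 and 279 CPM. The lowest MOV mouse, mouse 2, was far above the highest sham mouse, mouse 4. The D + Q sham mice had 23.2, 45, 42.7, 42.2 and 39.8 CPM and the D + Q MOV mice 441, 361, 489.9, 397 and 426 CPM, again without overlap. The log2 fold change was 3.51 (SE 0.18, edgeR adjusted p = 2.66e-08) with vehicle and 3.49 (SE 0.173, edgeR adjusted p = 2.62e-08) with D + Q. On the opposite strand the long noncoding gene Gm45472 covers 24.3% of the exon bases of Mmp2.

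Mmp14, the membrane-type collagenase (chr14:54668878-54682821), had 10.0, 9.14, 9.82, 12 and 12.5 CPM in the 5 vehicle sham mice. Its level was 130.3, 88.9, 149.9, 164 and 126 CPM with vehicle and MOV. All MOV mice were thus above all sham mice, and mouse 2 was again the lowest of its group. With D + Q the sham mice had 14.0, 20.8, 16.3, 19.0 and 18.4 CPM and the MOV mice 195, 141, 222, 142 and 179 CPM. On the log2 scale the change was 3.63 (SE 0.165, edgeR adjusted p = 8.64e-09) with vehicle and 3.35 (SE 0.154, edgeR adjusted p = 7.04e-09) with D + Q. Leaving out single mice kept the vehicle value between 3.56 and 3.77 and the D + Q value between 3.26 and 3.44.

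The other secreted proteases among the members were scarce in sham muscle, with group means under 2 CPM, and rose by about 3 on the log2 scale. Mmp3, or stromelysin-1, which cleaves proteoglycans and activates other MMPs (chr9:7445822-7455975), went from 0.322, 1.32, 0.382, 1.04 and 0.998 CPM in vehicle sham mice to 10.2, 6.94, 8.70, 13.1 and 9.99 CPM in vehicle MOV mice. The groups did not overlap, with a log2 difference of 3.61 (SE 0.303, edgeR adjusted p = 2.89e-07). That value rests on 6 to 23 counts in vehicle sham mice, and with vehicle Mmp3 passed the count minimum through the MOV mice. With D + Q the range was 1.17 to 2.43 CPM in sham and 11.6 to 15.9 CPM in MOV mice, a log2 fold change of 3.11 (SE 0.184). Mmp19, a basement membrane protease (chr10:128626773-128636695), ranged from 0.763 to 2.36 CPM in vehicle sham and from 10.4 to 22.1 CPM in vehicle MOV mice. Its log2 fold change was 3.14 (SE 0.258) with vehicle and 3.17 (SE 0.149) with D + Q. The opposite strand of Mmp19 holds Tmem198b, whose exons cover 30.6% of its exon bases, and because the strandedness of the counting is not given in the sources used here, reads of the shared bases cannot be assigned to either gene with certainty.

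Mmp12, the macrophage metalloelastase (chr9:7344381-7369499), was the member protease that varied most among mice of 1 group. Vehicle sham mice had 0.0459, 1.21, 0.255, 0.405 and 0.294 CPM, from 1 to 21 counts, and vehicle MOV mice had 9.11, 1.5, 1.36, 4.64 and 6.77 CPM. The highest sham mouse, mouse 2, came close to the lowest MOV mouse, mouse 3, although the groups did not overlap. The coefficient of variation among vehicle MOV mice was 71.8%, compared with 21.6% for Mmp14. With D + Q the sham mice ranged from 0.254 to 1.16 CPM and the MOV mice from 1.12 to 8.01 CPM, so that those groups overlapped. The change was 3.43 on the log2 scale (SE 0.742, edgeR adjusted p = 0.00221) with vehicle and 2.73 (SE 0.658, edgeR adjusted p = 0.00381) with D + Q. Sham counts were 5 to 19 with D + Q, and in both treatments Mmp12 passed the count minimum through the MOV mice. Of 10 macrophage markers, 9 rose with vehicle and 10 with D + Q, and their summed level went from between 62.8 and 163.8 CPM to between 310.1 and 924.7 CPM with vehicle. Their part in the Mmp12 result was not tested.

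Mmp9, the gelatinase best known from neutrophils, macrophages and osteoclasts (chr2:164780439-164797771), was the exception among the member proteases. It was near the detection limit, with 3 to 32 counts per mouse. Vehicle sham mice had 0.138, 0.460, 0.446, 1.04 and 1.17 CPM and vehicle MOV mice 0.605, 0.155, 0.561, 0.35 and 0.423 CPM, and these groups overlapped, with sham mice 4 and 5 above every MOV mouse. The log2 fold change with vehicle was -0.59 (SE 0.511, edgeR adjusted p = 0.337). D + Q sham mice had 1.15, 0.732, 1.46, 0.679 and 1.62 CPM, every one of them above the D + Q MOV mice at 0.353, 0.422, 0.259, 0.224 and 0.398 CPM. With D + Q the log2 fold change was -1.71 (SE 0.359, edgeR adjusted p = 0.000416), but Mmp9 passed the count minimum there through the sham mice, where it was higher, and 1 of the 5 D + Q MOV mice reached 10 counts. The difference between both treatments was itself not past the test (log2 -1.16, SE 0.639, edgeR adjusted p = 0.862). Of 7 neutrophil markers, Ly6g, Mpo and Elane have no row, and the sum of the other 4 was 0.413 to 2.23 CPM in vehicle sham, 2.88 to 6.77 CPM in vehicle MOV, 0.711 to 4.08 CPM in D + Q sham and 2.91 to 5.31 CPM in D + Q MOV mice.

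Among the inhibitors, Timp1 rose most, Timp2 rose moderately, Timp3 hardly moved and Timp4 fell. Timp1, an inducible inhibitor of most secreted MMPs (chrX:20736316-20740976), had 0.0459, 0.288, 0.319, 0.810 and 0.235 CPM in vehicle sham mice, from 1 to 14 counts. It had 18, 11.2, 22.9, 30.3 and 27.5 CPM in vehicle MOV mice, all far above the highest sham mouse. The sham values with D + Q were 0.733, 1.46, 0.390, 0.437 and 0.355 CPM and the MOV values 17.5, 19.6, 21.9, 18.7 and 33.7 CPM. The fold changes were the largest of the set, 6.05 on the log2 scale with vehicle (SE 0.448, edgeR adjusted p = 9.22e-07) and 5.13 with D + Q (SE 0.328, edgeR adjusted p = 1.14e-07). Both rest on low sham counts, 7 to 24 with D + Q, and Timp1 passed the count minimum through the MOV mice. The vehicle value moved between 5.71 and 6.68 when single mice were left out. Timp1 lies inside Syn1 on the opposite strand but shares no exon base with it.

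Timp2, the partner of Mmp14 and Mmp2 and the most abundant inhibitor (chr11:118191887-118246566), had 109, 80.4, 95.1, 133 and 99.7 CPM in vehicle sham mice. Vehicle MOV mice had 294, 206, 345, 369 and 299 CPM. The groups were apart, with mouse 2 the lowest MOV mouse and mouse 4 the highest sham mouse. With D + Q the sham mice had 105, 127, 152, 102 and 119 CPM and the MOV mice 422, 385, 453, 394 and 413 CPM. On the log2 scale Timp2 changed by 1.56 (SE 0.165, edgeR adjusted p = 6.76e-06) with vehicle and 1.81 (SE 0.0950, edgeR adjusted p = 2.84e-10) with D + Q, less than for 5 of the 6 proteases. Cep295nl lies within the locus on the same strand and shares 7.44% of the exon bases, at a level of at most 0.841 CPM in any mouse.

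Timp3, the inhibitor that binds to the matrix and also blocks ADAM and ADAMTS proteases (chr10:86136236-86185371), was the steadiest of the 10 genes. Its level was 98.1, 83.8, 82.7, 95.2 and 68.7 CPM in vehicle sham and 82.3, 70.9, 71.1, 85.9 and 62.5 CPM in vehicle MOV mice, with wide overlap. The log2 fold change with vehicle was -0.19 (SE 0.104, edgeR adjusted p = 0.120), and without vehicle sham mouse 5 it was -0.27 and passed (edgeR adjusted p = 0.0308). D + Q sham mice had 81.0, 78.5, 80.6, 79.7 and 89.1 CPM and D + Q MOV mice 96.7, 87.6, 86.0, 83.4 and 92.3 CPM. These groups overlapped too, yet the log2 fold change of 0.16 (SE 0.0579) passed the test with an edgeR adjusted p of 0.0191. That call was lost without D + Q sham mouse 2 (edgeR adjusted p = 0.0513), without D + Q MOV mouse 1 (edgeR adjusted p = 0.0521) and with all 20 mice in 1 fit (edgeR adjusted p = 0.213). Scaled by total counts alone the vehicle value turned to 0.19, below the median of 0.36 that all genes then had. Syn3 on the opposite strand covers 21.3% of the exon bases of Timp3 and was read at 0.0448 to 0.735 CPM.

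Timp4, an inhibitor found mainly in heart, skeletal muscle and fat (chr6:115187773-115229336), was the member that fell in both treatments. Vehicle sham mice had 14.2, 19.2, 18.1, 17.1 and 22.6 CPM and vehicle MOV mice 13.3, 13.4, 3.32, 5.30 and 7.79 CPM. All 5 MOV mice were below all 5 sham mice, but mice 1 and 2 were only just so, and mouse 3 was the lowest. With D + Q the MOV mice were tight, at 5.81, 5.60, 7.99, 7.71 and 6.77 CPM against 28.0, 14.8, 19.5, 17.3 and 20.0 CPM in sham mice. In log2 terms Timp4 changed by -1.08 (SE 0.342, edgeR adjusted p = 0.0199) with vehicle and -1.52 (SE 0.159, edgeR adjusted p = 1.00e-06) with D + Q. With vehicle the call was lost without vehicle MOV mouse 4 (edgeR adjusted p = 0.0551) and when counts were scaled by totals alone (log2 fold change -0.72, edgeR adjusted p = 0.0727). The summed level of 7 myofiber markers fell as well, from between 128671 and 146578 CPM to between 75184 and 105857 CPM with vehicle, with 3 of 7 called lower and 1 higher. With D + Q, 4 of the 7 were called lower and 1 higher. The sum of 4 adipocyte markers went from between 4.33 and 14.9 CPM to between 1.90 and 4.2 CPM with vehicle, with 3 of the 3 tested called lower. With D + Q it was 4.87 to 14.1 CPM in sham and 2.52 to 6.52 CPM in MOV mice, with overlap, and 1 of the 3 tested was called lower. Their part in the Timp4 result was not tested.

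In vehicle mice the MOV and sham groups did not overlap in 8 of the 10 genes, against 46.4% of all tested genes, and in D + Q mice in 8 of 10, against 53.0%. Since the choice of members was made with earlier results known, these counts only describe the set. The overlapping genes were Mmp9 and Timp3 with vehicle and Mmp12 and Timp3 with D + Q. Fibroblast markers rose beside the members, with 7 of 8 higher in each treatment and a summed level that went from between 934.2 and 1409 CPM to between 5035 and 10205 CPM with vehicle. Tendon markers did so too, with 7 of 7 higher and sums of 82.7 to 110.7 CPM in sham and 649.0 to 1046 CPM in MOV mice. Endothelial markers rose less, with 6 of 8 called and sums of 171.9 to 233.1 CPM and 278.0 to 317.4 CPM. In whole muscle, more cells of a type and more RNA per cell cannot be told apart, and the part of these cell types in the member results was not tested.

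**Figure D2:**
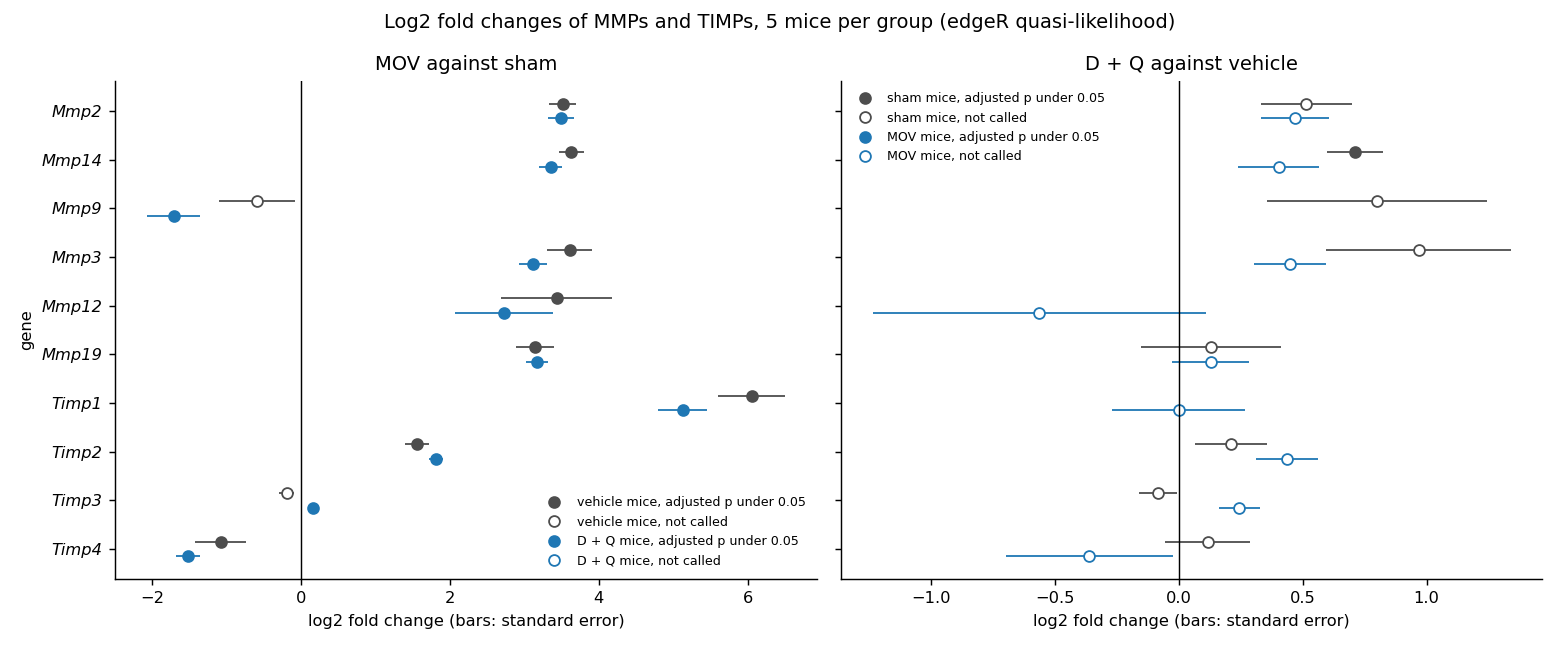
Log2 fold changes (points) with their standard errors (bars) of the 10 genes for MOV against sham (left) and D + Q against vehicle (right), each from 5 mice per group. Filled points passed an adjusted p of 0.05. MOV changes reach 6.05 for Timp1, whereas the D + Q values stay within 1 of 0 and only Mmp14 in sham mice is filled; genes without a point were under the count minimum.

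Scaling by length allows the genes to be compared with each other, so CPM was divided by the kilobases of annotated exon. In vehicle sham muscle the order was led by 2 inhibitors, Timp2 at 23.1 ± 4.34 and Timp3 at 10.5 ± 1.43 CPM per kilobase (SD, n = 5). Mmp2 followed at 7.55 ± 1.42 CPM per kilobase and overlapped Timp3. Timp4 at 2.36 and Mmp14 at 1.73 CPM per kilobase overlapped, and Mmp19, Mmp3, Mmp9, Timp1 and Mmp12 lay below 0.5 CPM per kilobase with each neighbour in that order overlapping the next. In vehicle MOV muscle Mmp2 led at 85.7 ± 19.7 CPM per kilobase and overlapped Timp2 at 67.8 ± 14.0 CPM per kilobase (SD, n = 5). Mmp14 came next at 21.4 ± 4.62 CPM per kilobase, followed by Timp1 at 11.2 and Timp3 at 9.15 CPM per kilobase, with overlap between Mmp14 and Timp1 and between Timp1 and Timp3. Mmp3 at 5.44 and Mmp19 at 4.32 CPM per kilobase overlapped each other and stood apart from Timp4 at 1.11 CPM per kilobase. Mmp9 was the lowest at 0.113 CPM per kilobase. In D + Q MOV muscle the order was the same, with Mmp2 at 119.7 ± 13.7 and Timp2 at 92.7 ± 5.95 CPM per kilobase (SD, n = 5), whose ranges were just apart with this length and overlapped with that of the longest transcript.

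The balance of the chosen proteases and inhibitors turned with MOV. Other MMPs are not in the protease sum. Among them, Mmp15 had a mean of 26.3 CPM in vehicle sham and 24.6 CPM in vehicle MOV muscle, where Mmp2 had 26.7 and 303 CPM. The 6 proteases summed to 10.5 ± 1.80 CPM per kilobase in vehicle sham and 117.6 ± 26.4 in vehicle MOV muscle, and the 4 inhibitors to 36.2 ± 5.11 and 89.3 ± 17.5 CPM per kilobase (SD, n = 5 each). The ratio of proteases to inhibitors was 0.291 ± 0.0440 in vehicle sham, 0.391 ± 0.0827 in D + Q sham, 1.31 ± 0.0750 in vehicle MOV and 1.39 ± 0.0978 in D + Q MOV mice (SD, n = 5 each). Sham mice ranged from 0.240 to 0.486 and MOV mice from 1.23 to 1.51, so that no mouse of one surgery reached the other. Mmp2 alone made up 72.1% of the protease sum in vehicle sham and 72.9% in vehicle MOV muscle, and Timp2 made up 64.0% and 75.9% of the inhibitor sum. The second inhibitor was Timp3 in sham muscle (29.1% with vehicle) and Timp1 in MOV muscle (12.6% with vehicle). With the longest transcript in place of the exon union Timp3 remained second in MOV muscle, at 14.4%, while the ratio was 0.263 in vehicle sham and 1.32 in vehicle MOV mice. These are transcript levels, and active enzyme was not measured.

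Within the activation complex the shift was uneven. The Mmp14 to Timp2 ratio per kilobase was 0.0760 ± 0.0105 in vehicle sham and 0.315 ± 0.00700 in vehicle MOV mice (SD, n = 5 each). Among the 5 vehicle MOV mice it stayed between 0.304 and 0.322, although their Mmp14 level ranged from 88.9 to 164.0 CPM. In D + Q MOV mice the ratio had a similar mean of 0.306 but a wider range of 0.261 to 0.355. Mmp2 to Timp2 went from 0.329 ± 0.0490 to 1.27 ± 0.0989 with vehicle and from 0.405 ± 0.0926 to 1.29 ± 0.0679 with D + Q (SD, n = 5 each). Mmp2 to Mmp14, by contrast, had means of 4.34 and 3.78 in sham mice and 4.02 and 4.26 in MOV mice, vehicle first,, with ranges that overlapped in every pair of groups. The size of these ratios depends on the length chosen, and with the canonical transcript, a length chosen after the data were seen, Mmp14 to Timp2 was 0.141 and 0.585 in vehicle sham and MOV mice.

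**Figure D3:**
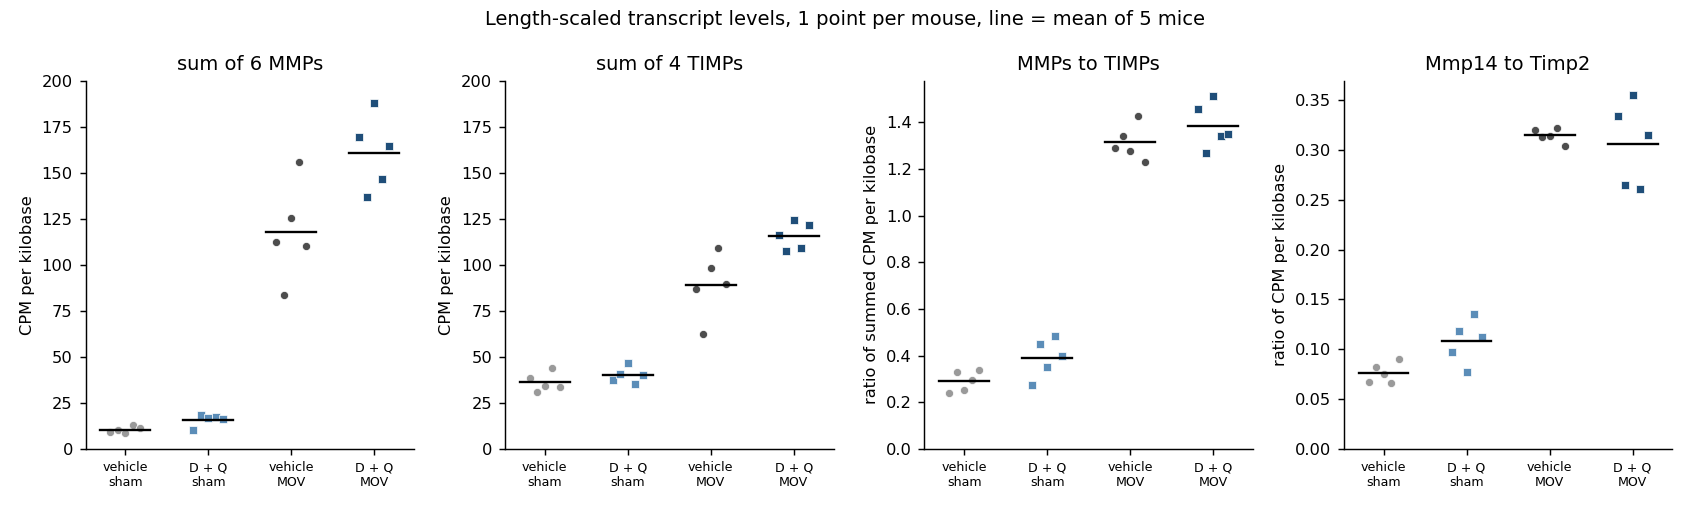
Summed CPM per kilobase of the 6 MMPs and the 4 TIMPs, the ratio of both sums and the Mmp14 to Timp2 ratio, with 1 point per mouse and a line at the mean of 5 mice. The MMPs to TIMPs ratio lies between 0.240 and 0.486 in the 10 sham mice and between 1.23 and 1.51 in the 10 MOV mice.

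The likeness of each gene to all others was measured as the root-mean-square difference of centred log2 CPM over the 20 mice, among 15700 genes. Mmp2 and Mmp14 were each other's nearest gene, at 0.169, where the spread of Mmp2 itself was an SD of 1.83. The next nearest were Pamr1 for Mmp2 (0.172) and Olfml2b for Mmp14 (0.193). Timp2 was nearest to Tbc1d2b (0.139) and Rgl1 (0.139), Mmp19 to Rcn3 (0.296) and Col6a1 (0.311), and Timp1 to Col1a1 (0.494) and Col8a1 (0.534). Timp4 lay nearest to Ucp3 (0.329) and Plin4 (0.339), which encode a mitochondrial carrier and a lipid droplet protein of muscle. Timp3 was nearest to Serinc3 (0.125) and H3f3a (0.134), Mmp3 to Lhfpl2 (0.396) and Zfp185 (0.399), Mmp12 to R3hdml (0.729) and Saa3 (0.764), and Mmp9 to Gdpd5 (0.506) and 1810010H24Rik (0.545). The 20 mice share their libraries across genes, so these values describe profiles only.

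D + Q against vehicle in sham mice asks what the drugs did to resting muscle, and Mmp14 was the one member that passed. The count minimum left 8 of the 10 genes, of which Mmp14 was called higher, against 0.215% of 13926 genes called. The 5 D + Q sham mice had 14.0, 20.8, 16.3, 19.0 and 18.4 CPM of Mmp14 and the vehicle sham mice 10.0, 9.14, 9.82, 12 and 12.5 CPM, so that the lowest D + Q mouse, mouse 1, was above the highest vehicle mouse, mouse 5. The log2 fold change was 0.71 (SE 0.112, edgeR adjusted p = 0.0177). Mmp14 was also the only member of 8 whose groups did not overlap, against 2.05% of the tested genes. DESeq2 gave nearly the same log2 fold change of 0.71 with an adjusted p of 3.32e-05.

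The Mmp14 call in sham mice depended on single mice, while its size moved little. When 1 mouse at a time was left out it stayed between 0.65 and 0.78. The call was lost without vehicle sham mouse 1 (edgeR adjusted p = 0.0801), mouse 2 (0.0507) or mouse 3 (0.0616), and without D + Q sham mouse 3 (0.0513) or mouse 5 (0.0805). With all 20 mice in 1 fit the log2 fold change was 0.72 and the edgeR adjusted p 0.141.

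The other 7 members tested in sham mice did not pass. Mmp3 had 1.20, 2.01, 1.17, 2.43 and 1.22 CPM with D + Q and 0.322, 1.32, 0.382, 1.04 and 0.998 CPM with vehicle (log2 fold change 0.97, SE 0.371, edgeR adjusted p = 0.381). Mmp3 and Mmp9 passed the count minimum through the D + Q mice, where they were higher. Mmp2 had a log2 fold change of 0.52 (SE 0.185, edgeR adjusted p = 0.393), and D + Q sham mouse 1, at 23.2 CPM, lay within the vehicle range of 21.2 to 34.1 CPM while the other 4 mice lay above it. Without that mouse Mmp2 was called (log2 fold change 0.65, edgeR adjusted p = 0.0343). Mmp9 had a log2 fold change of 0.80 (SE 0.443, edgeR adjusted p = 0.560), Timp2 of 0.21 (SE 0.144), Mmp19 of 0.13 (SE 0.281), Timp4 of 0.12 (SE 0.172) and Timp3 of -0.084 (SE 0.0782). At an unadjusted p under 0.05 there were 3 of 8 members, Mmp14, Mmp2 and Mmp3, against 10.2% of all genes tested. Mmp12 and Timp1 were under the count minimum and differed by 0.37 and 0.89 in mean log2(CPM + 0.1), with p = 0.540 and p = 0.135 in two-sided exact permutation tests whose smallest p is 0.00794. Fibroblast markers moved with these values, with 8 of 8 above 0 in log2 fold change, 0 called and 5 at an unadjusted p under 0.05, and a summed level of 934.2 to 1409 CPM with vehicle and 1113 to 1813 CPM with D + Q. D + Q sham mouse 1, the lowest of its group for Mmp2, Mmp14 and Mmp19, had the lowest of these sums. Tendon markers moved likewise, with 7 of 7 above 0, 0 called and 5 at an unadjusted p under 0.05. Of 10 macrophage markers, 8 were above 0 and 0 had an unadjusted p under 0.05. The part of these cell types in the Mmp14 result was not tested.

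D + Q against vehicle in MOV mice asks whether the drugs altered the protease and inhibitor response to overload. Of the 10 genes, 9 passed the count minimum and 0 were called, against 0.0% of 15238 genes (edgeR adjusted p under 0.05). By DESeq2, 8 genes and 0 members were called, with no adjusted p given for 5 of the members. At an unadjusted p under 0.05, 5 of the 9 members were higher with D + Q, against 8.79% of all genes tested in either direction. These were Mmp2, Mmp14 and Timp2, which form the activation complex, with Mmp3 and Timp3. Both D + Q comparisons use different mice, but each shares its groups with the MOV comparisons above.

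Timp2 was the 1 member of 9 whose MOV groups did not overlap, against 1.44% of the tested genes. D + Q MOV mice had 422, 385, 453, 394 and 413 CPM, all above the vehicle MOV mice at 294, 206, 345, 369 and 299 CPM. Its log2 fold change was 0.44 (SE 0.125, edgeR adjusted p = 0.523). Mmp2 had a log2 fold change of 0.47 (SE 0.136), and vehicle MOV mouse 4 at 407.5 CPM lay above D + Q mice 2 and 4. For Mmp3 the log2 fold change was 0.45 (SE 0.145) and for Mmp14 0.40 (SE 0.165). Timp3 had a log2 fold change of 0.25 (SE 0.0843), with vehicle mice at 82.3, 70.9, 71.1, 85.9 and 62.5 CPM and D + Q mice at 96.7, 87.6, 86.0, 83.4 and 92.3 CPM, where only vehicle mouse 4 reached into the D + Q range. The edgeR adjusted p-values of these 5 genes were 0.523 or 0.547.

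The remaining members were near 0 or uncertain in MOV mice. Timp1 had a log2 fold change of 0.00093 (SE 0.268), with vehicle mice from 11.2 to 30.3 CPM and D + Q mice from 17.5 to 33.7 CPM. Mmp19 had 0.13 (SE 0.157), Mmp12 -0.56 (SE 0.673) and Timp4 -0.36 (SE 0.337). Mmp9 was under the count minimum and differed by -0.21 in mean log2(CPM + 0.1), with p = 0.5 in the exact permutation test (two-sided).

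Vehicle MOV mouse 2 set part of the size of these values. Without it the log2 fold change was 0.37 for Mmp2, 0.29 for Mmp14, 0.35 for Mmp3, 0.32 for Timp2 and 0.23 for Timp3, and all 5 kept an unadjusted p under 0.05 in edgeR. When each of the 10 mice was left out in turn, between 4 and 6 members had an unadjusted p under 0.05 and 0 had an adjusted p under 0.05. Fibroblast marker sums ranged from 5035 to 10205 CPM with vehicle and from 9095 to 12106 CPM with D + Q, with 8 of 8 markers above 0 in log2 fold change, 0 called and 4 at an unadjusted p under 0.05. Macrophage marker sums ranged from 310.1 to 924.7 CPM and from 676.8 to 815.2 CPM, with 1 of 10 at an unadjusted p under 0.05. Of 7 tendon markers, 7 were above 0, 0 were called and 4 had an unadjusted p under 0.05. The part of these cell types in the member values was not tested.

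**Figure D4:**
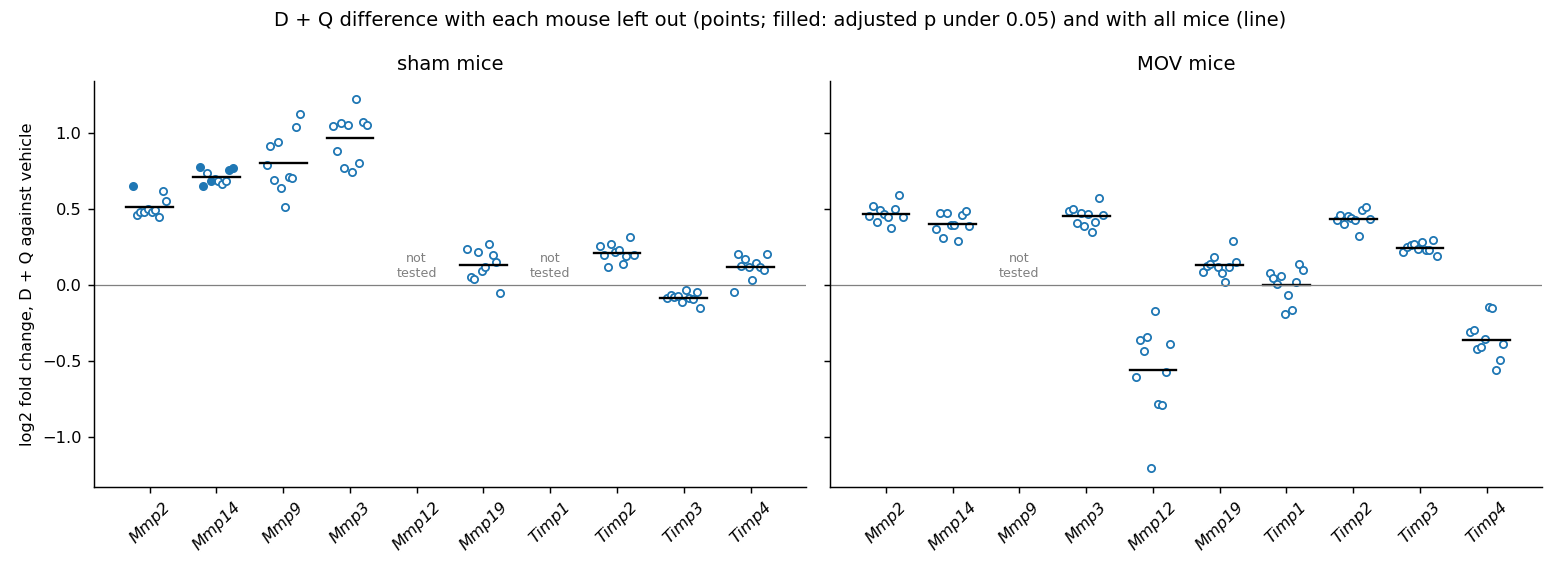
Log2 fold change of D + Q against vehicle in sham (left) and MOV mice (right), with all mice (line) and with each of the 10 mice left out in turn (points, filled where the adjusted p was under 0.05). Mmp14 in sham mice stays between 0.65 and 0.78 with 5 of 10 points filled, and in MOV mice no point is filled.

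The interaction asks whether the D + Q difference itself changed with MOV, and 0 of 10 members passed, against 0.0127% of 15700 genes (2 genes, Sgk1 and Tcf15). Timp3 came nearest, at a log2 value of 0.32 (SE 0.122, edgeR adjusted p = 0.791), lower with D + Q in sham and higher in MOV mice in the means. Its 4 group means were 85.7 CPM in vehicle sham, 81.8 CPM in D + Q sham, 74.5 CPM in vehicle MOV and 89.2 CPM in D + Q MOV muscle. For Mmp14 the value was -0.31 (SE 0.228) and for Mmp2 -0.054 (SE 0.247), so the Mmp14 call in sham mice was not shown to differ from the MOV value.

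Other genes of the pathway were read from lists. Of 17 other MMPs, 12 have a row and 7 were tested, of which 6 rose with MOV in each treatment and 0 fell. Mmp23 had the largest log2 fold change with vehicle, 3.79, from between 0.765 and 1.42 CPM to between 7.56 and 17.2 CPM. Mmp13, a collagenase, was called higher with vehicle (edgeR adjusted p = 0.0146). It ranged from 0 to 1.88 CPM in vehicle sham and from 1.55 to 19.6 CPM in vehicle MOV mice, so that the groups overlapped. With 0 CPM in the lowest sham mouse, it passed the count minimum through the MOV mice, so no fold is given. Mmp16, a membrane-type MMP, was called higher in both treatments, but it was at most at 0.230 CPM in any sham mouse and passed the count minimum through the MOV mice, so no fold is given. Its mean was 1.20 CPM in vehicle MOV and 1.44 CPM in D + Q MOV mice. Mmp15, also membrane-type, was at 24.6 to 28.8 CPM in the mean of every group and was the 1 tested gene not called.

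Of 20 genes that activate, inhibit or clear MMPs, 17 were tested with MOV and 13 rose and 1, Bsg, fell in each treatment. The largest rises were in Thbs1 and Thbs2, thrombospondins that bind and clear MMP2, with log2 fold changes of 5.12 and 4.56 with vehicle and 4.94 and 4.47 with D + Q. Tfpi2, a serine protease inhibitor of the matrix, was called higher in both treatments. It was at most at 0.388 CPM in any sham mouse and passed the count minimum through the MOV mice, so no fold is given. Its mean was 2.60 CPM in vehicle MOV and 2.82 CPM in D + Q MOV mice. Plau, the urokinase that turns plasminogen into plasmin, rose by 0.85 and 0.86, from a mean of 14.8 to 26.6 CPM with vehicle. Reck, a membrane-anchored inhibitor of MMP14, MMP2 and MMP9, rose by 0.89 and 1.17, from 2.69 to 4.97 CPM with vehicle. Furin, which cuts the Mmp14 proenzyme inside the cell, was at a mean of 51.5 CPM in vehicle sham and 56.0 CPM in vehicle MOV mice and did not pass (log2 fold change 0.13, edgeR adjusted p = 0.140). With D + Q in sham mice, Thbs1 was called beside Mmp14, with a log2 fold change of 0.81 (SE 0.132, edgeR adjusted p = 0.0199), and in MOV mice and in the interaction 0 genes of the list were called.

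Of 13 matrix substrates of MMPs, collagens, laminins, fibronectin and proteoglycans, all 13 rose with MOV in each treatment. Col1a1 and Col3a1, the main fibrillar collagen genes, rose by 5.58 and 5.28 on the log2 scale with vehicle and by 5.09 and 4.79 with D + Q. Acan, the cartilage proteoglycan aggrecan, was at 3 counts or fewer in every sham mouse, so no fold is given, and had a mean of 6.64 CPM in vehicle MOV and 9.50 CPM in D + Q MOV mice. With D + Q in sham mice 1 of 12 tested substrates was called, the laminin chain Lamb1 (log2 fold change 0.61, SE 0.0970, edgeR adjusted p = 0.0177), and 10 of 12 were higher at an unadjusted p under 0.05. In MOV mice 7 of 13 were higher at an unadjusted p under 0.05 and 0 were called. Col1a1 and Col3a1 also stand in the fibroblast marker list, so both lists are not independent.

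The genes that overlap or enclose TIMP loci gave few counts. Syn2, which shares 14.75% of the exon bases of Timp4 on the opposite strand, rose with MOV by 1.31 on the log2 scale with vehicle and 1.29 with D + Q while Timp4 fell, and its group means lay between 0.607 and 1.69 CPM. In both treatments Syn2 passed the count minimum through the MOV mice. Cep295nl was tested with MOV only in D + Q mice, where it was called higher beside Timp2 (edgeR adjusted p = 0.0299). Its mean was 0.239 CPM in D + Q sham and 0.619 CPM in D + Q MOV mice. With 0 CPM in the lowest sham mouse, the sham mice alone would not have met the count minimum, so no fold is given. Syn1 and Syn3 were under the count minimum in both MOV comparisons.

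The promoters were searched for the AP-1 word, since members of the Fos and Jun families that bind it are classic inducers of MMP genes. TGAGTCA and its reverse complement TGACTCA were searched on both strands from 250 bases before to 50 bases after the start of the canonical transcript. It was found in Mmp3, Mmp9, Mmp12 and Mmp19, 4 of the 6 proteases, and in 0 of the 4 inhibitors, where 4.7% of 21770 protein-coding promoters of GRCm39 hold it. It begins 46 bases before the start in Mmp3, 69 in Mmp9, 44 in Mmp12 and 26 in Mmp19. The 100 bases before the start are shown for these 4 genes with the word in capitals, and for Mmp2 and Mmp14, the pair with the closest profiles, which lack it in this window.
Mmp3, chr9:7445722-7445821, plus strand: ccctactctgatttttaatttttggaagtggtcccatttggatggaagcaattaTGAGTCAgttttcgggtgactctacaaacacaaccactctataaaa
Mmp9, chr2:164790039-164790138, plus strand: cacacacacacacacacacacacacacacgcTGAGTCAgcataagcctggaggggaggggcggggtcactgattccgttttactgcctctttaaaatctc
Mmp12, chr9:7347274-7347373, plus strand: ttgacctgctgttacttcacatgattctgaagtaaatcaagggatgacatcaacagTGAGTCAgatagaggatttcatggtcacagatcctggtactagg
Mmp19, chr10:128626673-128626772, plus strand: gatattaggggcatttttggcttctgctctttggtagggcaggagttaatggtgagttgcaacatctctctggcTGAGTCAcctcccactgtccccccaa
Mmp2, chr8:93553802-93553901, plus strand: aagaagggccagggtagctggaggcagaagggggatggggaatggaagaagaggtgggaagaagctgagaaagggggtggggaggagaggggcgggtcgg
Mmp14, chr14:54668778-54668877, plus strand: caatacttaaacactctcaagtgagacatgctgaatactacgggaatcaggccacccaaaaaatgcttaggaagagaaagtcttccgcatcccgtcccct

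The word stood in genes that rose and in one that did not. Mmp3, Mmp12 and Mmp19 hold it and rose with MOV, Mmp9 holds it and did not rise, and Mmp2, Mmp14, Timp1 and Timp2 rose without it in these windows. Of 12 AP-1 and ETS factor genes, 11 were tested with MOV, of which 8 rose with vehicle and 7 with D + Q, and 1, Ets2, fell with D + Q. Of all genes tested 30.7% rose with vehicle and 34.4% with D + Q. Fos passed in neither treatment (edgeR adjusted p = 0.0787 with vehicle and 0.197 with D + Q). Jun passed with vehicle (log2 fold change 0.42, edgeR adjusted p = 0.0341) but not with D + Q (-0.027, edgeR adjusted p = 0.909). The largest log2 fold changes among those called were 3.03 for Fosb, 2.20 for Etv4 and 2.03 for Junb with vehicle, and 2.62 for Fosb, 2.24 for Etv4 and 2.00 for Fosl2 with D + Q. Fosb ranged from 0.191 to 1.91 CPM in vehicle sham and from 0.777 to 19.2 CPM in vehicle MOV mice, with overlap. Its lowest D + Q sham mouse was at 0.292 CPM. In both treatments Fosb passed the count minimum through the MOV mice, so its fold changes rest on low sham counts. Junb ranged from 7.03 to 18.5 CPM in vehicle sham and from 19.5 to 113.2 CPM in vehicle MOV mice. Between D + Q and vehicle 0 of 11 factors were called in sham or in MOV mice.

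**Figure D5:**
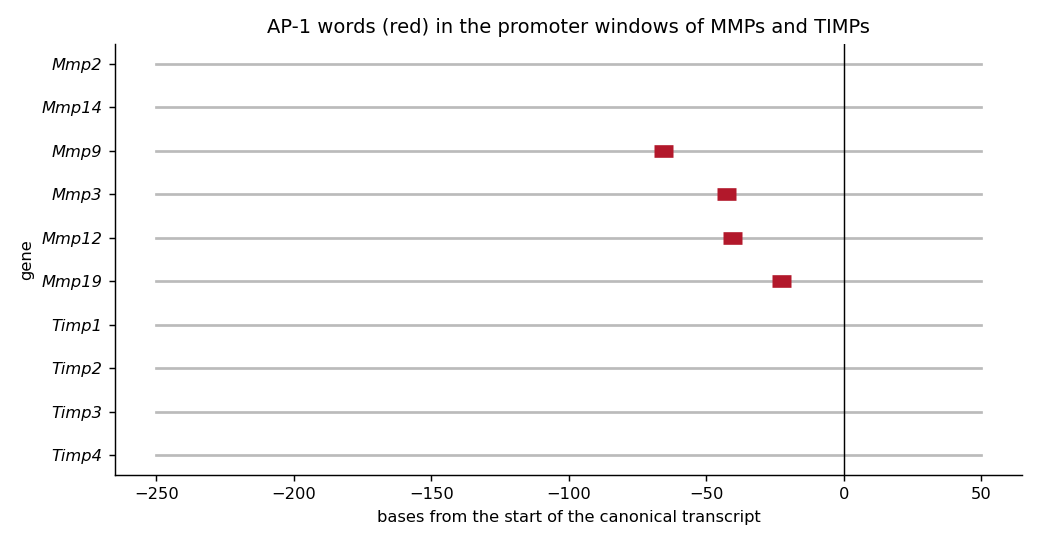
Promoter window of each gene from 250 bases before to 50 bases after the start of the canonical transcript (grey), with AP-1 words in red. The word stands between 69 and 26 bases before the start in Mmp9, Mmp3, Mmp12 and Mmp19 and is not found in the windows of the other 6 genes.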

How the data were processed

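RNA from the plantaris of 20 mice was sequenced, 5 in each of 4 groups taken from the labels. The authors aligned reads with STAR 2.7.8a to GRCm39 and deposited estimated counts per gene from the Partek quantifier, unnormalized and in part not whole (29.8% of values), because reads shared between genes are divided among them. Strandedness is not given in the sources used here. Totals were 17887495 to 26234505 counts per mouse, and no 2 mice of a group agreed within sampling noise.

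Counts were rounded and tested with edgeR 4.0.16 (R 4.3.3; TMM factors, robust quasi-likelihood test, Benjamini-Hochberg adjustment over all genes tested, threshold 0.05), in the 2 groups of each comparison and in all 20 mice for the interaction, among genes that reached 10 counts in 5 or more mice of the fit. Genes below this minimum were compared by exact permutation tests (scipy 1.17.1) of log2(CPM + 0.1). The procedure was tested on simulated data. Lengths, overlaps and sequences came from the GRCm39 genome with GENCODE vM39. P-values set the difference between groups against the spread between animals.

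The members and lists were chosen with earlier results of these data known. By rule, all members were named, with at most 3 called genes per list and comparison of the largest fold change, Plau, Reck, Furin, the genes overlapping TIMPs and the 2 most alike genes of each member. Mmp15, Bsg, Ets2, Fos and Jun were named after their values were seen. Alternatives were DESeq2 1.42.0, limma 3.58.1 (voom with quality weights), other scalings, no count minimum, all 20 mice in 1 fit, the replicate number as a block, gene length and GC offsets, other gene lengths and leaving out each mouse.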

Additional observations from a re-analysis of the deposited data

Results flagged for a closer look

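In 4 of the 40 sets of 5 mice, 1 set per gene and group, a single mouse lay far from the other 4 by Dixon's criterion, which chance meets in about 1 in 20 sets. Mmp2 was low in D + Q sham mouse 1, at 23.2 CPM where the other 4 lay between 39.8 and 45 CPM. Mmp12 was high in D + Q sham mouse 2, at 1.16 CPM where the others lay between 0.254 and 0.437 CPM. Timp1 was high in D + Q MOV mouse 5, at 33.7 CPM beside 17.5 to 21.9 CPM. Timp3 was high in D + Q sham mouse 5, at 89.1 CPM beside 78.5 to 81.0 CPM.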

How the results depend on the processing

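The MOV calls of Mmp2, Mmp14, Mmp3, Mmp12, Mmp19, Timp1 and Timp2 held under every alternative run, in both treatments. With total counts as the only scaling the median of all genes moved to 0.36 with vehicle and 0.39 with D + Q, 84.1% and 83.5% of the calls were higher in place of 50.8% and 52.6%, and Timp3 with vehicle turned to 0.19. The number of members called between D + Q and vehicle in sham mice was 0 with all 20 mice in 1 fit and 0 with the replicate block and GC offsets together, and 0 to 2 with single mice left out. Calls over all genes in that comparison were 30 in the main test, 125 with DESeq2, 67 without the count minimum, 49 with total counts, 42 with limma-voom, 20 with all mice in 1 fit, 10 with GC offsets, 3 with block and GC offsets, and 2 to 74 with single mice left out. In MOV mice they were 0, and 8 with DESeq2, 2 with the block and 0 to 2 with single mice left out. The replicate numbers did not pair the mice, with correlations of deviations from -0.15 to 0.185 and 3 of 20 mice best matched to their own number. With the replicate block 9 members were called for MOV with vehicle (Timp3 added at -0.19, adjusted p = 0.0233), 10 with D + Q, 1 for D + Q in sham mice and 0 in MOV mice, and calls over all genes were 19 in sham mice and 1 in the interaction, which had 2 in the main test. Values near 0 changed sign. Timp1 with D + Q in MOV mice was -0.0028 with RLE factors, -0.000298 without the count minimum and -0.19 to 0.13 with single mice left out. The Mmp19 interaction was 0.0037 with DESeq2, 0.0040 with RLE factors, 0.000446 with total counts, 0.012 with the block, 0.0071 with block and GC offsets, and -0.14 to 0.18 with single mice left out, and the Mmp2 interaction was 0.015 with block and GC offsets and -0.19 to 0.077. In sham mice D + Q gave -0.056 to 0.27 for Mmp19 and -0.044 to 0.21 for Timp4 with single mice left out. The causes were not tested. Counts of 32 or fewer limited Mmp9 in every mouse, Mmp12 and Timp1 in sham mice, and Mmp3 in vehicle sham mice.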
